A study of Mus musculus with 7 samples.

Results

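DNA methylation at genes of zinc finger transcription factors was compared between airway macrophages (AMs) of mice with muco-obstructive lung disease and AMs of wild-type (WT) mice. The deposited list holds 1926 differentially methylated regions (DMRs), each assigned by the authors to a gene. A DMR was taken as a member when the symbol of its gene began with Zfp, Znf, Zscan, Zkscan or Zbtb and continued with a digit. This gave 39 member DMRs at 32 genes, out of 1926 DMRs at 1625 genes. AMs (CD45+ Siglec-F+ CD11c+) had been sorted from lungs of C57BL/6 mice, and their DNA was tagmented, treated with bisulfite and sequenced across the whole genome (tWGBS), with 3 Scnn1b-Tg and 4 WT samples. Scnn1b-Tg mice carry a transgene for the sodium channel subunit Scnn1b under the club cell secretory protein promoter, which is active in airway epithelium. The mice were female and 6 weeks old by the methods of the study, and the labels do not say whether a sample is 1 mouse. No agent was given to either genotype in these samples. The table holds 1 mean level per region and genotype, so the spread between samples and the depth behind a level are unknown. Each region had been selected on its difference between genotypes, so all values are descriptions without a test and are set beside the same measure over all 1926 DMRs. The header does not say which level belongs to which genotype, and every direction rests on the study's description of most DMRs, and of single genes such as Tank, Sec14l1 and Zfp704, as less methylated in Scnn1b-Tg AMs. Of 8 genes described in this way, 7 carried 9 DMRs in the table, and the level taken as that of Scnn1b-Tg AMs was the lower one in 9 of 9. The table holds no expression, so the cell type could not be checked by its markers. Of the genes for the sorting markers, Itgax (CD11c) carried 1 DMR, and Ptprc (CD45) and Siglecf carried 0.

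C2H2 zinc finger proteins bind DNA through arrays of short finger domains, each held by a zinc ion between cysteines and histidines. The largest subfamily in mammals joins the fingers to a Krueppel-associated box (KRAB), which recruits the corepressor Trim28 and, through it, histone and DNA methylation to the bound sequence, often a transposable element. Genes of this subfamily arose by tandem duplication, lie in clusters on a few chromosomes, and are commonly surrounded by repeats and near-identical copies. Zscan and Zkscan proteins carry a SCAN dimerization domain, and Zbtb proteins a BTB domain.

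The reference sequence of 6 member DMRs is shown first, since the members differ in the kind of sequence they lie in. Sequences are those of GRCm38, the assembly behind mm10, read 5′ to 3′ on the plus strand from the first CpG of a region through the G of its last CpG, with each CpG in capitals. Zfp704 is shown as the member named by the study, Zfp981 and Zfp781 for their large loss of methylation, Zfp715 for its gain, and Zfp862-ps and Zfp846 as promoter members.
Zfp704 DMR, chr3:9581261-9581504: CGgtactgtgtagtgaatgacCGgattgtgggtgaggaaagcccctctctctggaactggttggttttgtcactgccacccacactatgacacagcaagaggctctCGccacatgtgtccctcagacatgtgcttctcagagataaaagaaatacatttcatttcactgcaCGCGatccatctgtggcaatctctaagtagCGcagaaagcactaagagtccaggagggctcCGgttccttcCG
Zfp981 DMR, chr4:146506723-146506820: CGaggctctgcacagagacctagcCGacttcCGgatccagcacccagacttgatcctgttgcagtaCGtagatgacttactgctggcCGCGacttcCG
Zfp781 DMR, chr10:81965424-81965505: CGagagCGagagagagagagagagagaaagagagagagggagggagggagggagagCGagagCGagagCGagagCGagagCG
Zfp715 DMR, chr7:43309660-43309730: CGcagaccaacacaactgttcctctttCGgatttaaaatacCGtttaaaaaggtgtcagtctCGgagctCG
Zfp862-ps DMR, chr6:48503787-48503840: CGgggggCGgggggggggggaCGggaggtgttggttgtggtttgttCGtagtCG
Zfp846 DMR, chr9:20582331-20582612: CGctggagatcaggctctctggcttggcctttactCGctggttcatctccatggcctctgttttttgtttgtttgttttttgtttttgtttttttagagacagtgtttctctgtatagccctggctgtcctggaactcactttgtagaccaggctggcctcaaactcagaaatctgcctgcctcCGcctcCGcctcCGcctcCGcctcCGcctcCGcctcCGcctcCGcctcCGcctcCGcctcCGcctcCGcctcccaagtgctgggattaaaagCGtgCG

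These sequences are of different kinds. In the Zfp704 and Zfp715 DMRs 0% of the 32-base windows occur a second time on the reference chromosomes. In the Zfp781 DMR all 7 CpGs follow or precede another at a spacing of 6 bases, and in the Zfp846 DMR 12 of 16 CpGs do, both within simple repeats. The Zfp775 DMR shares windows of 32 bases with 42 other DMRs of the table, 2 of them members. One of these is the Zscan4d DMR with the largest loss, printed with its locus. Of the 39 member DMRs, 18 (46.2%) shared at least 1 such window with another DMR, against 38.8% of all DMRs.

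Most member DMRs were less methylated in Scnn1b-Tg AMs. In the authors' table, 29 of 39 (74.4%) had a lower level in Scnn1b-Tg than in WT AMs and 10 had a higher one, while 72.9% of all 1926 DMRs were lower, so the balance of directions was near that of the whole list. The lower members had a median WT level of 0.866, with a range of 0.406 to 0.951, and a median Scnn1b-Tg level of 0.601, with a range of 0.196 to 0.762. The higher members had a median WT level of 0.582, with a range of 0.172 to 0.775, and reached a median of 0.818 in Scnn1b-Tg AMs. Over all DMRs the corresponding WT medians were 0.829 for lower and 0.470 for higher regions. The higher members lay above that by their median, and also in Scnn1b-Tg AMs, where all higher DMRs had a median of 0.691. A WT level of at least 0.8 was found in 19 of the 39 members (48.7%) and in 43.2% of all DMRs, and each of these 19 was lower in Scnn1b-Tg AMs, as were all 832 such DMRs of the whole list.

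**Figure D1:**
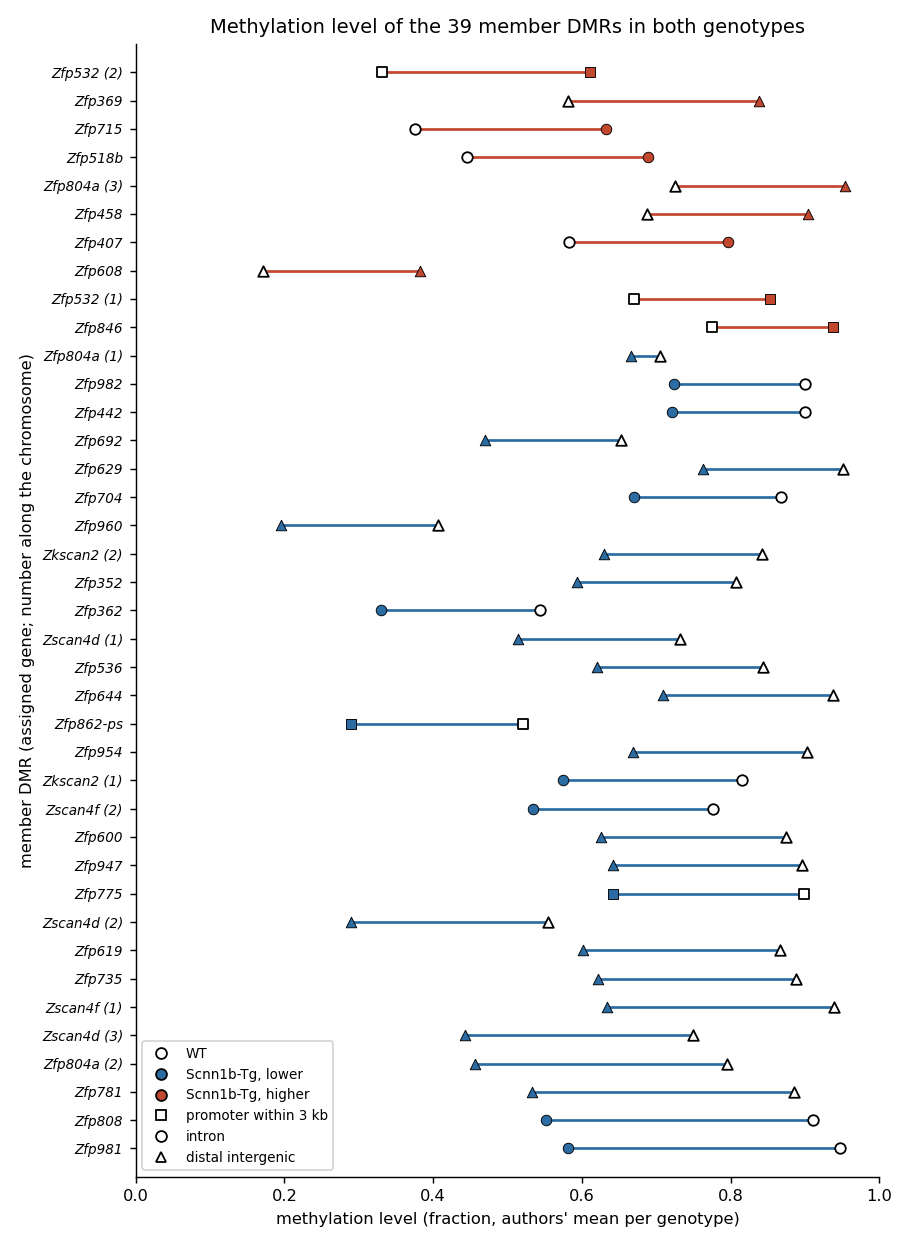
Methylation level of each member DMR as the authors' mean per genotype (x axis, fraction from 0 to 1), with 1 row per DMR ordered by difference. Open symbols are WT, filled symbols Scnn1b-Tg (blue lower, red higher), and the symbol shape gives the annotation class. The 29 blue rows mostly begin at WT levels above 0.8, whereas no red row begins above 0.775.

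The size of the difference was near that of the whole list. Its median was -0.233 in the lower members and 0.223 in the higher members, against -0.238 and 0.216 over all lower and all higher DMRs. An absolute difference of at least 0.3 occurred in 6 members, all of them lower, and in 224 of 1926 DMRs, of which 182 were lower. At the other end, 1 of the 3 Zfp804a DMRs differed by only -0.04 (0.666 in Scnn1b-Tg and 0.705 in WT AMs), and 37 DMRs of the whole table had an absolute difference under 0.1. By their deposited means, these 37 fall below the minimum change of 0.1 that the study states for its DMRs. The scatter of WT against Scnn1b-Tg levels places the members among all DMRs.

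**Figure D2:**
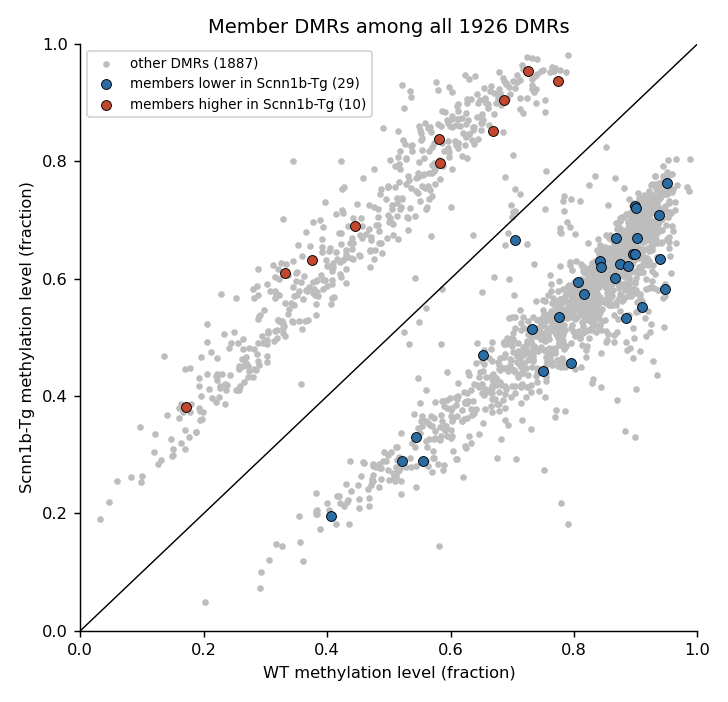
WT level (x axis) against Scnn1b-Tg level (y axis), both fractions, for all 1926 DMRs, with the 39 members coloured by direction and the diagonal marking equal levels. The members spread over the same bands as the other DMRs, 29 below and 10 above the diagonal, with 1 point close to it.

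The 3 members with the largest losses were assigned to KRAB zinc finger genes, and on RefSeq only that of Zfp981 lies in its gene. The DMR of Zfp981, in intron 1, had 0.582 in Scnn1b-Tg against 0.948 in WT AMs over 7 CpGs, a difference of -0.366 and place 37 among the 1404 lower DMRs. The Zfp808 DMR followed with 0.552 against 0.911 over 8 CpGs and the Zfp781 DMR, 34.9 kb upstream of its gene, with 0.532 against 0.885 over 7 CpGs. Neither of these 2 overlaps a RefSeq gene, and the nearest coding start sites are those of Gm3325 for the Zfp808 DMR and, at 12.6 kb, of Gm19802 for the Zfp781 DMR. The authors' annotation, in contrast, places the Zfp808 DMR in an intron of a Zfp808 transcript. The proteins of all 3 assigned genes hold a match to the KRAB box and between 7 and 24 matches to the zinc finger pattern. The other members at or past a loss of 0.3 were a Zfp804a DMR (0.456 against 0.796) and 1 DMR each of Zscan4d (0.443 against 0.749) and Zscan4f (0.633 against 0.939). The Zfp704 DMR, in intron 1, stood at 0.670 against 0.868 over 8 CpGs, a difference of -0.199 that was smaller than the median of the lower members. The 12 lower members outside the rule for named genes, among them Zfp644, Zfp536 and Zfp619, differed by -0.266 to -0.179, from WT levels between 0.406 and 0.951.

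The largest gain was in a promoter. The larger DMR of Zfp532, whose human counterpart is a fusion partner of the NUT gene in NUT carcinoma, had 0.610 in Scnn1b-Tg against 0.332 in WT AMs over 14 CpGs, place 76 among the 522 higher DMRs. The levels of Zfp369 were 0.839 in Scnn1b-Tg and 0.582 in WT AMs over 9 CpGs, 173 kb from the start site of the gene. Zfp715, a KRAB gene like Zfp369, had, in intron 2, 0.632 against 0.375 over 5 CpGs. The Zfp518b DMR had 0.689 against 0.446 over 4 CpGs and lies inside the neighbouring gene Clnk, an adaptor of immune receptor signalling. A Zfp804a DMR closed the 5 largest gains with 0.953 against 0.725 over 8 CpGs. Of the other higher members, the Zfp608 DMR had the lowest levels of the 10 (0.382 against 0.172). It lies 632 kb upstream of the start of Zfp608, within Gm34295. The DMRs of Zfp458 and Zfp407, the second Zfp532 DMR and the Zfp846 DMR differed by 0.218, 0.214, 0.183 and 0.162.

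Members lay in the same kinds of annotation as the rest of the list. By the authors' annotation, 23 (59.0%) were distal intergenic, 11 (28.2%) intronic and 5 (12.8%) in promoters within 3 kb of a start site, against 57.7%, 26.6% and 11.0% of all DMRs. None lay in an exon, a UTR or a downstream flank, classes that held 56, 22 and 12 of the 1926 DMRs. The median distance to the start site of the assigned gene was 36.2 kb in members and 46.7 kb in all DMRs, and it ranged from 0 to 682 kb. A distance over 100 kb occurred in 11 members (28.2%) and in 34.8% of all DMRs. Lower and higher members differed in class: 19 of 29 lower members were distal intergenic and 2 in promoters, whereas 4 of 10 higher members were distal intergenic and 3 in promoters. The same lean was present in the whole list, where promoters held 7.55% of lower and 20.1% of higher DMRs.

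Assignment to a zinc finger gene did not always mark the RefSeq gene the DMR sits in. On the RefSeq annotation of GRCm38, 11 members overlapped the gene they were assigned to, 7 overlapped a different gene only and 21 overlapped none. RefSeq exons were touched by 3 members: the Zfp846 DMR, which overlaps Zfp846 and Gm51704, the larger Zfp532 DMR, and the Zfp619 DMR within Gm2058. The nearest start site of a coding gene was that of the assigned gene in 27 of 39 members. The DMRs of Zfp692 and Zfp619 lay within 4930438A08Rik and Gm2058, the Zfp600 DMR within the pseudogene Vmn2r-ps17, and the Zfp982 DMR within Zfp978, another zinc finger gene. For the Zfp982 DMR the annotations differ, since that of the authors places it in an intron of a Zfp982 transcript. Both distant Zfp804a DMRs, 649 and 682 kb from its start, were nearest to the start of Fsip2. Zfp804a encodes a protein with 1 finger match whose human counterpart is known from psychiatric genetics, and its 3 DMRs went in opposite directions: -0.04 and -0.34 in the first and second along the chromosome and 0.23 in the third. The second and the third spanned 32.8 kb together, both in fully or almost fully repeated sequence (99.3% and 100% of windows).

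The 5 promoter members split by direction. Zfp862-ps, a pseudogene, had 0.290 in Scnn1b-Tg and 0.521 in WT AMs over 5 CpGs in a short region 0.5 kb upstream of its start site, with 9.26 CpGs per 100 bp. Zfp775 had 0.641 against 0.899 over 7 CpGs and lies 0.595 kb inside the start used by the authors. The RefSeq start of Zfp775 is farther away, at 4.26 kb. Zfp846, a KRAB gene with 15 finger matches, had the opposite direction, 0.937 against 0.775, over 16 CpGs beginning 1.00 kb downstream of its start, and this region overlapped an annotated RefSeq exon. Both Zfp532 DMRs were higher as well, 0.853 against 0.669 over 6 CpGs 0.751 kb upstream and 0.610 against 0.332 over 14 CpGs at a start used by the authors. The RefSeq start of Zfp532 is 1.83 kb from the middle of this larger DMR. Promoter members included the 2 regions with 10 or more CpGs, Zfp846 and the larger Zfp532 DMR, and both were higher in Scnn1b-Tg AMs.

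Chromosome 7 held the most member DMRs. On it lay 12 of the 39 members (30.8%), 11 of them lower, with 110 of the 491 RefSeq genes that match the symbol rule (22.4%) and 131 of all 1926 DMRs (6.80%). Counted by gene, 8 of the 32 member genes (25.0%) were on it, and without the Zscan4 locus 7 of 34 members (20.6%), both near its share of matching genes. Members made up 9.16% of the DMRs on chromosome 7. Chromosome 4 followed with 5 members, all lower, and 38 matching genes. Chromosome 17, which holds 52 matching genes, had 2 members, and chromosome 13, which holds 44, had 3. Chromosomes 1 and X had the most DMRs of the table, 144 and 154, but 0 members and only 8 and 11 matching genes. All 4 members on chromosome 18 (Zfp608, Zfp407 and both Zfp532 DMRs) were higher in Scnn1b-Tg AMs, and the chromosome holds 13 matching genes and 64 DMRs. Directions over all DMRs of single chromosomes were not counted, so these member counts have no such share beside them.

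**Figure D3:**
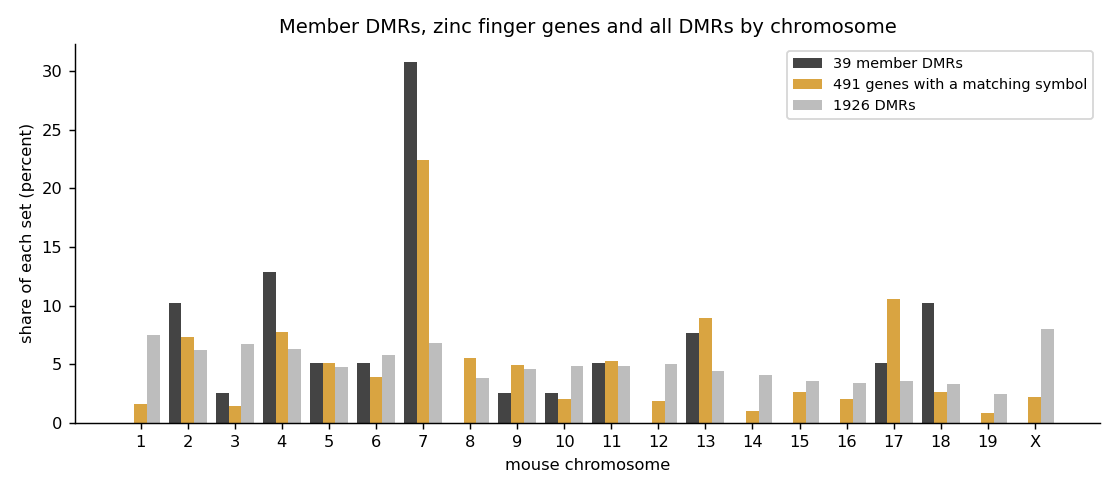
Share (percent, y axis) of the 39 member DMRs, of the 491 RefSeq genes with a matching symbol and of all 1926 DMRs on each mouse chromosome (x axis). Chromosome 7 holds 30.8% of the members, 22.4% of the genes and 6.80% of the DMRs.

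Gene clusters were defined as 3 or more matching genes in a row with start to start gaps of at most 0.5 Mb. There were 41 of them, holding 285 genes (58.0%) on 21.8 Mb, and 11 contained a member DMR. Inside clusters lay 17 members (43.6%), and 27 of all 1926 DMRs (1.40%). Members and clusters were defined by the same gene symbols, so a higher share in members followed largely from the rule. A member was assigned to 16 of the 285 clustered genes (5.61%) and to 16 of the 206 genes outside clusters (7.77%). Of the 465 coding genes with a matching symbol, 31 (6.67%) had a DMR, near the 6.11% of all 21774 coding genes. Members inside clusters were lower in 14 of 17, started from a median WT level of 0.874 and had a median difference of -0.242. Members outside were lower in 15 of 22, with 0.760 and -0.211.

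Some members lay close to each other. Within 1 Mb of another member lay 16 of the 39 (41.0%), in 6 groups. They were the Zscan4 genes on chromosome 7 (5 DMRs), Zfp600, Zfp981 and Zfp982 on chromosome 4 (3 DMRs), and pairs at Zfp862-ps and Zfp775, at Zkscan2, at Zfp532 and at Zfp804a. With 1 DMR per gene, 7 of 32 members had another member within 1 Mb. Any other DMR of the table lay that close to 31 of the 39 members and to 1500 of all 1926 DMRs. All regions of a group shared a direction except the Zfp804a pair. Counting every DMR of the table within 1 Mb, 84.2% of the 76 neighbours of members had the direction of the member, against 64.9% of neighbours over all DMRs. Without the Zscan4 locus this share was 71.4% in members, and, beside that pair, Zfp644, Zfp954, Zfp369 and Zfp458 had only neighbours of the opposite direction. The Zfp600 region of the chromosome 4 group stood at 0.626 in Scnn1b-Tg and 0.874 in WT AMs and the Zfp982 region at 0.723 against 0.900. The Zkscan2 pair, 1 DMR in intron 6 and 1 lying 171 kb upstream, had 0.575 against 0.816 and 0.630 against 0.842. The pair at Zfp862-ps and Zfp775 spans 103 kb within a cluster of 11 matching genes.

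The largest group was the Zscan4 locus, with 5 DMRs. Zscan4 proteins are active in early cleavage-stage embryos and in a small share of mouse embryonic stem cells, where they are tied to telomere maintenance. The locus holds 9 matching genes, of which Zscan4b, Zscan4c, Zscan4d and Zscan4f are annotated as protein-coding. All 5 member DMRs were lower in Scnn1b-Tg AMs and spanned 316 kb. The sequences of the Zscan4d DMR with the largest loss and of both Zscan4f DMRs are shown for comparison.
Zscan4d DMR, chr7:11191420-11191571: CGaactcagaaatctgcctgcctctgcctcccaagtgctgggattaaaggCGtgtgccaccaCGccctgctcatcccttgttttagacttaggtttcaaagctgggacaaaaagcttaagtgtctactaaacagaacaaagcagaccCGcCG
Zscan4f upstream DMR, chr7:11289378-11289525: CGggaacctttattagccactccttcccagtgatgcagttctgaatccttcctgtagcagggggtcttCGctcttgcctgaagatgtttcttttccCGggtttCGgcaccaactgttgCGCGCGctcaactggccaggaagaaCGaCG
Zscan4f downstream DMR, chr7:11488301-11488407: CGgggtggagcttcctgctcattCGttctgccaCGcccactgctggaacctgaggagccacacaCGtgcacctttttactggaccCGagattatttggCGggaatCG

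Upstream of Zscan4d, 3 DMRs followed each other at 5.97, 14.5 and 25.3 kb from its start, with Scnn1b-Tg levels of 0.514, 0.290 and 0.443 and WT levels of 0.731, 0.555 and 0.749. The Zscan4f DMR 108 kb upstream of its start had 0.633 in Scnn1b-Tg and 0.939 in WT AMs over 9 CpGs, and the one 90.4 kb downstream had 0.535 against 0.776 over 7 CpGs. Along the chromosome from the Zscan4d start, these 2 DMRs begin at 123 and 322 kb, and Zscan4f at 232 kb. The pseudogenes Zscan4e, at 140 to 145 kb, and Zscan4-ps2, at 348 to 353 kb, lie nearer to them than Zscan4f. None of the 5 member DMRs overlaps a RefSeq gene. The 4 other DMRs within 1 Mb, assigned to the pheromone receptor genes Vmn1r66, Vmn1r72, Vmn1r77 and Vmn1r83, were lower as well, so all 9 DMRs of this stretch had the same direction. The locus is repetitive, and 4 of the 5 members had at least 50% of their windows elsewhere in the genome as well. The first Zscan4d DMR, 4094 bp long, is listed with 4 CpGs where the reference holds 50. Beside it, the second Zscan4d DMR had 47.5% repeated windows, 4 CpGs in both sources, and a loss of the same order, -0.265.

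**Figure D4:**
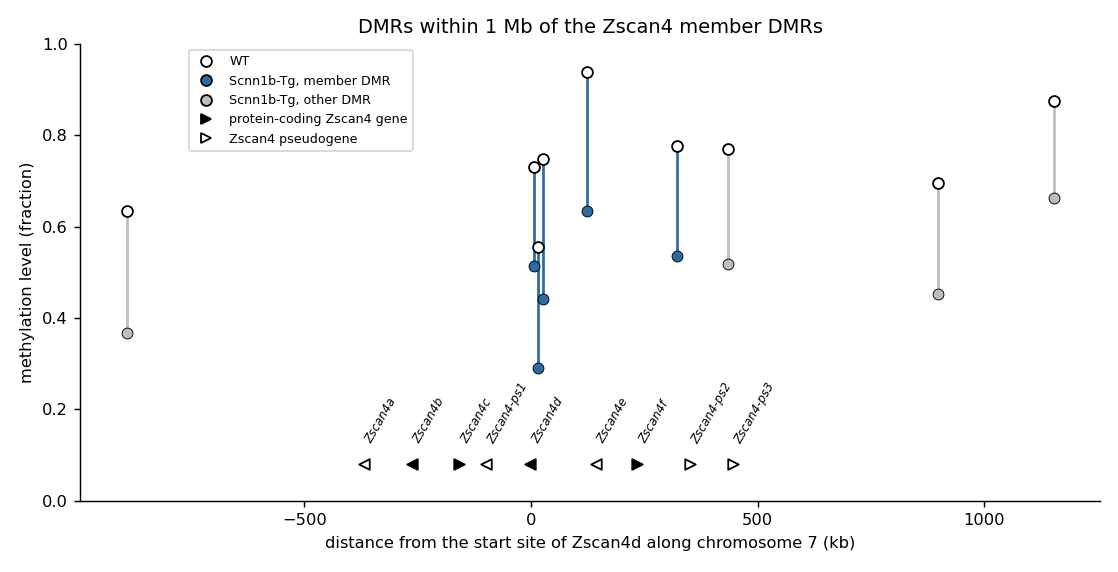
Methylation level (y axis, fraction) of every DMR within 1 Mb of the Zscan4 members against its distance from the Zscan4d start site in kb (x axis). Open circles are WT, filled circles Scnn1b-Tg (blue members, grey other DMRs), and arrowheads at the bottom mark the Zscan4 genes and their strand. All 9 filled circles lie below their open circle.

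Members held more repeated sequence than the list as a whole. The median share of bases masked as repeats in the reference was 85.1% in members and 38.6% in all DMRs. Measured as 32-base windows that occur again on the chromosomes, the median was 75.0% against 14.2%. At least 50% of windows were repeated in 25 of 39 members (64.1%) and in 41.8% of all DMRs. The share was higher in lower than in higher members, 72.4% against 40%, and so it was over all DMRs, 47.0% against 28.0%. Inside gene clusters 14 of 17 members were mostly repeated, against 11 of 22 outside. At genes with a KRAB box match 14 of 15 members were mostly repeated, against 11 of 23 at genes without one.

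**Figure D5:**
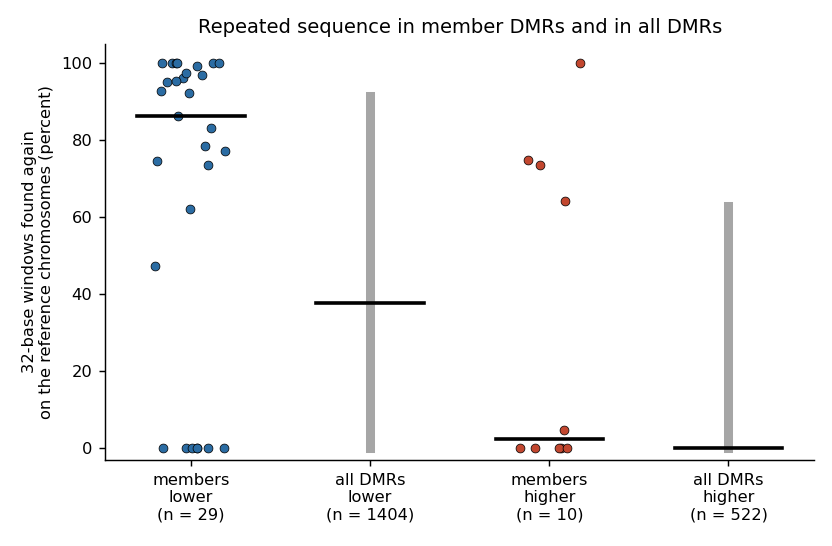
Share of 32-base windows of a DMR that occur again on the reference chromosomes (y axis, percent) for members, by direction (1 point per DMR), and for all DMRs (grey bar from the first to the third quartile). Black lines are medians: 86.3% for lower members, 37.7% for all lower DMRs, 2.43% for higher members and 0% for all higher DMRs.

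Direction differed between repeated and unique members. Of the 25 mostly repeated members 21 (84.0%) were lower in Scnn1b-Tg AMs, with a median WT level of 0.874, and of the 14 mostly unique members 8 (57.1%) were, with a median WT level of 0.569. Over all DMRs the shares were 81.9% and 66.4%. All 6 members with a loss of at least 0.3 were in the mostly repeated part, as were 165 of the 224 DMRs (73.7%) with an absolute difference of that size. The reference held more CpGs than the table in 6 members (15.4%), all lower and all mostly repeated, against 11.4% of all DMRs. The widest gaps were at Zfp600, with 8 CpGs listed and 60 in the reference, and at the first Zscan4d DMR. Whether read placement in repeats contributed to the differences was not tested, because read counts per sample were not analysed here.

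In base composition members were close to other DMRs. Their median GC content was 50.7% against 49.0%, the CpG density 3.41 against 3.21 CpGs per 100 bp, the number of CpGs 6 against 5, and the length 154 against 191 bp. The hexamer TGCCGC, the core of the sequence bound by the imprint factor Zfp57, occurred on either strand in 0 of 39 members and in 5.04% of all DMRs. TCCTGCNA, bound by Kaiso (Zbtb33), occurred in 4 members (10.3%) and in 3.95% of all DMRs. CGCG, the core of the methylated site of Kaiso, occurred in 9 members (23.1%) and in 15.7% of all DMRs. Of 32851 RefSeq promoter windows on GRCm38, from 250 bases before to 50 after a start site, 11.6%, 4.96% and 38.0% held these motifs. Members and DMRs differ in length from each other and from these windows.

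The genes with a member DMR covered most of the range of domain content in the family. Translated RefSeq coding sequences of the 31 coding genes had a median of 9 zinc finger matches, with a range of 1 to 33, against 10 in all 465 matching coding genes. A KRAB box match was found in 15 (48.4%), against 42.8%. The pattern misses diverged boxes, for example that of Zkscan2, whose name holds KRAB. By prefix, 29 of the 32 genes were Zfp genes (of 416), 2 were Zscan genes (of 21) and 1 was a Zkscan gene (of 11). No DMR was assigned to any of the 42 Zbtb genes or to the 1 Znf gene. The median difference was -0.233 in the 15 DMRs of genes with a KRAB match and -0.213 in the 23 DMRs of coding genes without one.

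The share of genes with a DMR in lists of partners and related families ranged from 6.67% to 14.8%, beside 6.11% of all coding genes. Of 19 genes for KRAB corepressors and heterochromatin partners, 2 (10.5%) carried 1 DMR each. They were Hdac2, a histone deacetylase (0.583 in Scnn1b-Tg against 0.799 in WT AMs), and Pphln1, a subunit of the silencing complex HUSH (0.336 against 0.551). These DMRs lay 82.4 and 35.5 kb from the start sites of their genes. Of 15 genes for DNA methylation enzymes and readers, 1 (6.67%) had a DMR, Mbd2, a reader of methylated CpGs (0.538 against 0.888). That DMR lay 781 kb from the start site of Mbd2. Of 26 Krueppel-like and specificity protein factors, 3 (11.5%), Klf2, Klf8 and Klf12, had 1 DMR each, all lower in Scnn1b-Tg AMs. They lay 13.8, 55.5 and 424 kb from the start sites. Of 81 C2H2 factors under other symbols, 12 (14.8%) had 14 DMRs, 9 lower and 5 higher. Among the 5 were both DMRs of the promoter of Plagl1, an imprinted gene (0.567 against 0.408 and 0.598 against 0.393), and 1 of Zeb2, a factor of macrophage identity (0.596 against 0.349). The Zeb2 DMR lay 67.5 kb from the start site of that gene. Of 24 GATA and nuclear receptor genes, whose fingers are of other types, Nr3c1, the glucocorticoid receptor (0.213 against 0.467), and Trps1 (0.555 against 0.858) had 1 DMR each (8.33%). The Nr3c1 DMR lay 3.47 kb from its start site, and the Trps1 DMR 989 kb.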

How the data were processed

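AM DNA methylation was measured by tWGBS in 3 Scnn1b-Tg and 4 WT samples, grouped by the labels. Per the submitters' processing notes, Trimmomatic 0.36, BWA 0.7.8 on mm10, Picard and MethylDackel were used. By the study's methods, profiles were smoothed with bsseq and DMRs called with DSS, with minimum CpG number, length and difference, so levels of neighbouring CpGs are not separate measurements. The deposited table gives methylation levels as a fraction from 0 to 1, averaged by the authors over the CpGs of a region and the samples of a genotype, together with CpG counts, lengths, distances and annotation by UCSC transcript. The study names ChIPseeker for annotating accessible regions and no tool for DMRs. Depth per region is unknown, so no interval was given for a level. The authors' own difference and area statistic were not used, and the number of columns left out as those of other samples was 0.

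From these values the difference (Scnn1b-Tg minus WT) was recomputed, and members were counted and summarized beside all DMRs without tests. Each region starts and ends on a CpG of GRCm38, on which sequence features, RefSeq genes, 32-base windows (exact matches, both strands) and gene clusters were computed with Python 3.11.15, pysam 0.24.0, NumPy 2.4.6 and SciPy 1.17.1. All 32 genes matched a RefSeq gene by ID. A zinc finger match is C, 2 to 4 residues, C, 12 residues, H, 3 to 5 residues and H, and a KRAB match is F, one of S, T or A, 2 residues, E, W, 2 residues and L, in the longest RefSeq coding sequence. Scripts recovered the known answers in 550 of 550 simulated cases. Named genes were promoter, exon and UTR members, genes with at least 2 member DMRs, the 5 largest losses and gains, members within 1 Mb of another, and Zfp704; others named with values, as examples of a group, were chosen after their values were seen. Members, gene lists and measures were chosen with earlier results of these data known. Alternatives changed the difference, CpG, symbol, finger, distance and neighbour criteria.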

Additional observations from a re-analysis of the deposited data

How the results depend on the processing

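Of 99 alternative values, 88 stayed within the spread set for them: the 95% exact Clopper-Pearson interval for shares, 1 SD over members for medians and 1.5 times for counts. The interval treats members as independent and is wide, for example 57.9% to 87.0% for the share of lower members. Most alternatives were subsets of the same members, so staying within the spread is weak evidence of stability. The SD of single regions is wide for a median. The median distance to the start site, 36.2 kb, thus stayed within it at 17.2 kb in mostly unique windows and 0.50 kb with at least 10 CpGs. Keeping only members with at least 10 CpGs left 2 regions, both in promoters (100%) and both higher, so that 0% were lower, distal intergenic or intronic, 0 had a close neighbour and the median WT level was 0.553. With 1 DMR per gene, 7 members in place of 16 had another member within 1 Mb. Among members in mostly unique windows, an alternative chosen after seeing the data, 57.1% were lower, the median WT level was 0.569, 35.7% were distal intergenic and 2 had a close neighbour. Leaving out the Zscan4 locus, or regions with CpGs beyond the table, was also chosen after seeing the data and moved none of the 11 results past that spread. The same held for a minimum difference of 0.1, gene names holding zinc finger (58 regions), at least 3 finger matches, a distance within 100 kb and neighbour distances of 0.5 and 2 Mb.

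No paired analysis was possible because the table holds only 1 mean per genotype, although replicate numbers 1, 3 and 5 occur in both genotypes. For the same reason leaving out single samples was not run, and no difference was tested between genotypes. Depth per region is unknown, and a region with 4 CpGs, the fewest here, rests on few measurements. In repeats, reads can be placed at the wrong copy.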

Other observations

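Beyond the symbol rule, 19 further DMRs were assigned to genes whose full name holds the words zinc finger, most of them of other finger types. The wider set of 58 regions had 40 lower and 18 higher. One of them, a distal intergenic DMR assigned to Gm12633, a pseudogene of Zfp352, had 0.435 in Scnn1b-Tg against 0.934 in WT AMs. This was a larger loss than at any of the 39 members. The DMR assigned to Zfp352, a gene of the early embryo, lies 251 kb upstream of the start of that gene. It had 0.594 against 0.807. Zdbf2, an imprinted gene, had 0.281 against 0.564 in an intron, and the promoter of Zrsr1, also imprinted, 0.337 against 0.520.

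The extremes of the level differed between genotypes. The Zfp960 DMR, 293 kb upstream of the start of its gene, had the lowest Scnn1b-Tg level (0.196) with 0.406 in WT AMs. The Zfp608 DMR, 632 kb upstream, had the lowest WT level (0.172) with 0.382 in Scnn1b-Tg AMs. The most methylated member was a Zfp804a DMR in Scnn1b-Tg AMs (0.953) and the Zfp629 DMR in WT AMs (0.951).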
